A study of Homo sapiens with 24 samples.

Results

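The 10 genes described here encode the LRRC8 family of volume-regulated anion channels (LRRC8A, LRRC8B, LRRC8C, LRRC8D and LRRC8E) and a kinase pathway that senses cell volume and chloride (WNK1, WNK4, STK39, OXSR1 and SLC12A2). They were chosen by gene symbol, and all 10 were found among the 60660 features of the deposited tables, each on a row of its own. RNA was sequenced from 24 libraries of PC3 and LNCaP, human prostate cancer lines that the series describes as high in TRPM4. Each line was present as chronic-exposure (CE) cells, which the labels describe as bred from parental cells in rising Acetalax concentrations until resistant and then kept 2 weeks without it, and as parental cells. With 10 µM Acetalax for 4 h or no treatment (control), these 4 kinds of cells made 8 groups of 3 libraries. Acetalax is oxyphenisatin acetate, a former laxative. TRPM4 is a calcium-activated cation channel, and the series also scored swelling and blebbing of treated cells. The medium was RPMI-1640 for LNCaP and F-12 for PC3, each with 10% serum, so line and medium cannot be told apart.

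LRRC8 channels open when a cell swells and let chloride and small organic molecules out, so that water follows and the cell shrinks back. LRRC8A is the subunit that every such channel needs, and the other subunits that join it set which molecules pass. WNK kinases are held inactive by chloride and switched on by shrinkage or low chloride. They phosphorylate the kinases SPAK (STK39) and OSR1 (OXSR1), which switch on NKCC1 (SLC12A2), the carrier that brings sodium, potassium and chloride into the cell, and switch off the potassium-chloride carriers that let salt out.

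The libraries held 40160832 to 57728014 expected counts each. Pearson's r of log2(TPM + 1) between libraries of a group was lowest, 0.961, where PC3 CE Acetalax library 1 was involved. LNCaP parental Acetalax library 3 and LNCaP parental control library 2 also stood apart from their groups, and calls of the 10 genes that change without these 3 libraries are given with and without them. Libraries labelled CE lacked most of the markers of the prostate lines they are labelled as. The 6 epithelial markers (EPCAM, CDH1, KRT8, KRT18, KRT19 and CLDN4) summed to 24.4 to 26.7 TPM in PC3 CE controls, against 2776 to 3222 TPM in PC3 parental controls, and to 6.96 to 8.64 TPM in LNCaP CE controls, against 1238 to 1500 TPM in LNCaP parental controls. The 5 mesenchymal markers (VIM, CDH2, ZEB1, FN1 and SPARC) summed to 2155 to 2226 TPM in PC3 CE controls, against 208 to 227 TPM in PC3 parental controls, and to 4115 to 4385 TPM in LNCaP CE controls, against 173 to 454 TPM in LNCaP parental controls. VIM made up most of the CE sums, and FN1 went the other way, with 2.62 TPM in PC3 CE controls and 146 TPM in PC3 parental controls, and with 2.77 TPM in LNCaP CE controls and 308 TPM in LNCaP parental controls. CDH2 was lower in PC3 CE controls (11.8 TPM) than in PC3 parental controls (32.1 TPM). The 7 luminal markers summed to 4.83 to 7.76 TPM in LNCaP CE controls, against 4967 to 7788 TPM in LNCaP parental controls. The 4 PC3 markers summed to 16.0 to 17.0 TPM in PC3 CE controls, against 6010 to 6785 TPM in PC3 parental controls. The 5 melanocytic markers summed to 371 to 390 TPM in PC3 CE controls, with TYRP1 as the one above 1 TPM and MLANA and SOX10 at 0, against 2.99 to 3.40 TPM in PC3 parental controls. Across 14636 genes the group means of PC3 CE and LNCaP CE controls had a Pearson's r of 0.946, while r was 0.732 between PC3 CE and PC3 parental controls and 0.775 between LNCaP CE and LNCaP parental controls. Whether the CE libraries derive from the lines on their labels was not tested. Each CE comparison below, and each word for a rise or fall in CE cells, compares the libraries as labelled and carries all of these differences, whose part in the results was not tested. TRPM4 itself was at 8.87 to 9.73 TPM in LNCaP CE controls, against 91.1 to 106.8 TPM in LNCaP parental controls, and at 16.2 to 19.4 TPM in PC3 CE controls, against 42.3 to 50.6 TPM in PC3 parental controls.

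In CE cells of each line LRRC8E RNA was close to absent, LRRC8D was lower and LRRC8C was higher than in parental cells. LRRC8A went opposite ways, lower in PC3 CE and higher in LNCaP CE than in the parental line. Among the kinases WNK1 was higher in CE cells of each line, by 2.29-fold in PC3 and 2.10-fold in LNCaP. WNK4 fell 130-fold in PC3 CE and rose 16.0-fold in LNCaP CE. Of the 10 genes, 4 were higher and 5 lower in PC3 CE controls than in PC3 parental controls (edgeR's quasi-likelihood test, adjusted p under 0.05), where 77.5% of all 20049 genes tested passed, 38.5% higher and 39% lower. Against LNCaP parental controls, 6 were higher and 3 lower in LNCaP CE controls, where 75.3% of all 19393 genes passed, 36% higher and 39.3% lower. A share of 9 in 10 is thus near that of all genes, and the sizes and directions below carry the description. The median log2 fold change of the 10 genes was -0.23 in PC3, beside -0.01 for all genes, and 0.43 in LNCaP, beside -0.06 for all genes.

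**Figure D1:**
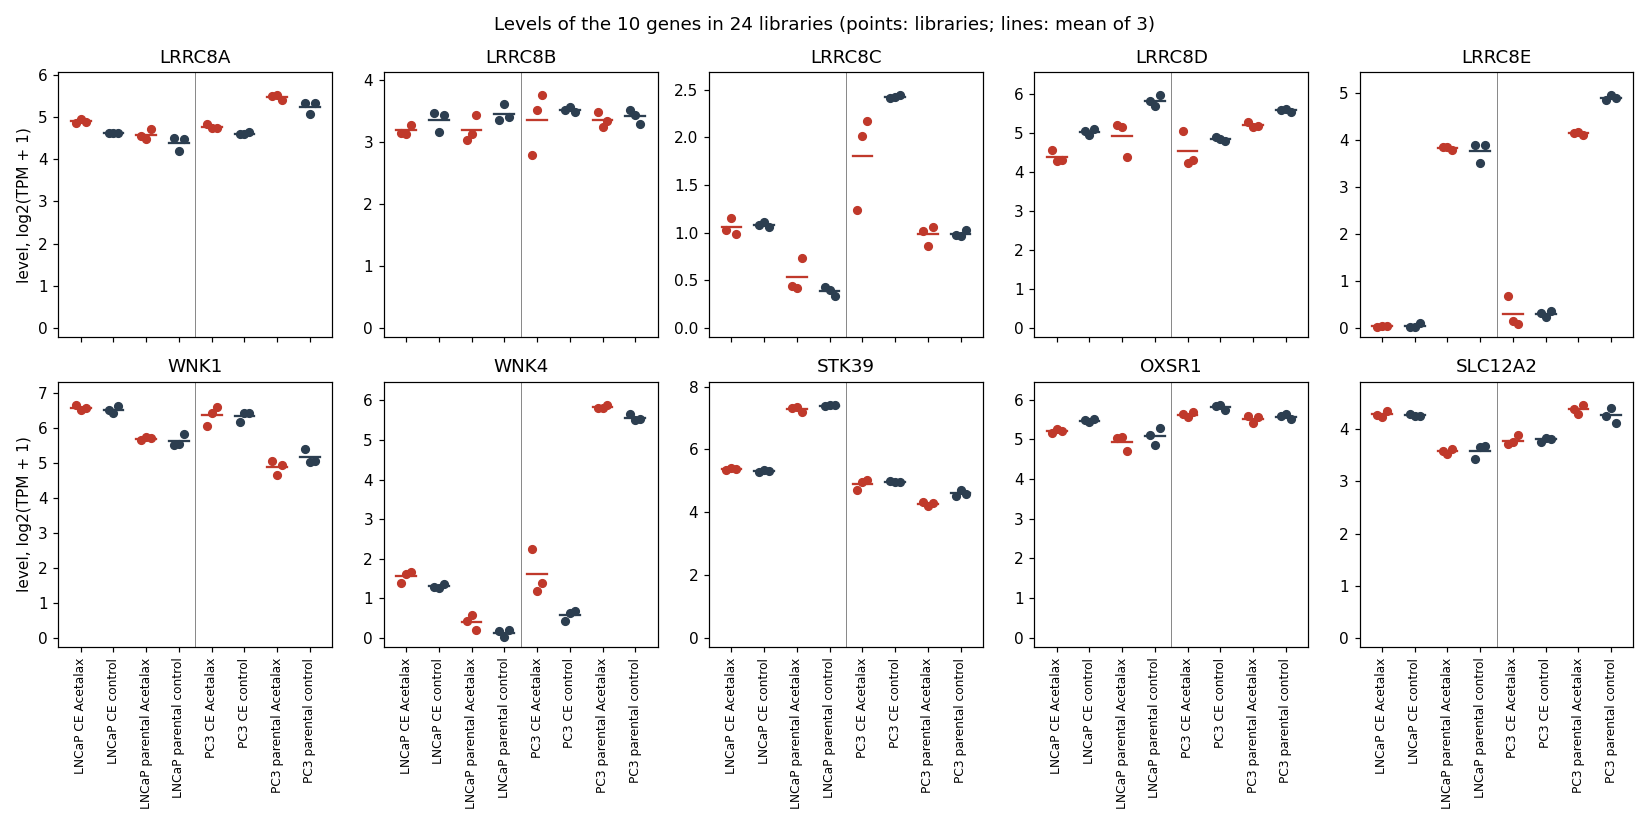
Levels of the 10 genes as log2(TPM + 1) on the vertical axis, 1 panel a gene, with points for the 3 libraries of each of the 8 groups and lines for their means (red: Acetalax, dark: control). LRRC8E is at most 0.60 TPM in the 12 CE libraries and at least 10.3 TPM in the 12 parental ones, WNK4 reaches 44.4 TPM or more only in the 6 PC3 parental libraries, and STK39 reaches 144 TPM or more only in the 6 LNCaP parental libraries.

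LRRC8E is the subunit that favours charged molecules such as aspartate and, in mice, cyclic dinucleotides. Its level was 0.25, 0.18 and 0.28 TPM in the PC3 CE controls, against 27.7, 29.9 and 28.5 TPM in the PC3 parental controls. In the LNCaP CE controls it was 0.01, 0.02 and 0.08 TPM, against 13.9, 10.3 and 13.8 TPM in the LNCaP parental controls. The groups were far apart in each line, and the LNCaP CE libraries were close to no reads at all. They held 1, 2 and 7 expected counts, 10 in all, against 3857 in the 3 parental controls. Per total count that is 386-fold fewer (95% exact interval 210 to 805, counting error only). Library 3 held 7 of the 10 counts, and without it the log2 fold change in LNCaP was -9.42 (edgeR, adjusted p = 1.4e-09). In PC3 CE controls 55 counts stood against 7164 in the parental controls, 149-fold fewer (114 to 198). The log2 fold change was -8.38 ± 0.30 in LNCaP (SE, n = 3 each, edgeR, adjusted p = 8.5e-10) and -7.22 ± 0.33 in PC3 (edgeR, adjusted p = 1.8e-09). The epithelial markers moved with LRRC8E in the same libraries, and, as these are bulk samples, fewer cells with the gene and less of its RNA per cell cannot be told apart here or in the results that follow.

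LRRC8C, a subunit known from T cells and endothelium, was the least abundant LRRC8 gene of parental cells but not of CE cells. It was at 4.33, 4.36 and 4.43 TPM in PC3 CE controls, against 0.96, 0.95 and 1.04 TPM in PC3 parental controls, 4.62-fold higher (log2 2.21 ± 0.27, edgeR, adjusted p = 1.5e-05). In LNCaP CE controls it was at 1.11, 1.16 and 1.08 TPM, against 0.35, 0.32 and 0.26 TPM in LNCaP parental controls, 4.20-fold higher (log2 2.07 ± 0.28, edgeR, adjusted p = 5.1e-05). The groups did not overlap in either line, and every value stayed below 5 TPM. The 2 lines' changes differed by -0.17 on the log2 scale, LNCaP minus PC3 (95% interval -0.999 to 0.67, edgeR, adjusted p = 0.78).

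LRRC8D, the subunit that widens the channel's choice to uncharged molecules and to drugs such as cisplatin and blasticidin, fell in CE cells. It was at 28.9, 27.8 and 27.0 TPM in PC3 CE controls, against 47.3, 48.0 and 46.0 TPM in PC3 parental controls. LNCaP CE controls had 32.4, 29.9 and 33.4 TPM, against 55.6, 50.9 and 61.9 TPM in LNCaP parental controls. The CE controls of each line lay below all of its parental controls, with log2 fold changes of -0.87 ± 0.21 in PC3 (edgeR, adjusted p = 0.0024) and -1.02 ± 0.15 in LNCaP (edgeR, adjusted p = 7.1e-05).

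LRRC8A, the obligatory subunit, was at 23.0, 23.2 and 23.8 TPM in PC3 CE controls, against 39.1, 32.7 and 39.0 TPM in PC3 parental controls. LNCaP CE controls had 23.6, 23.6 and 23.4 TPM, against 21.6, 17.3 and 21.3 TPM in LNCaP parental controls. The parental lines thus differed while the CE controls of both lines lay between 23.0 and 23.8 TPM. The log2 fold change was -0.72 ± 0.09 in PC3 (edgeR, adjusted p = 1.5e-05) and 0.34 ± 0.11 in LNCaP (edgeR, adjusted p = 0.013). The difference of the changes, LNCaP minus PC3, was 1.04 ± 0.14 (adjusted p = 2.4e-06, edgeR on 24 libraries), in a comparison where 56.8% of 21955 genes passed (25.7% higher, 31.2% lower) and 5 of the 10 genes did. LRRC8B, a subunit linked to calcium leak from the endoplasmic reticulum, did not pass in either line, with group means of 8.15 to 10.5 TPM over all 8 groups and changes of 0.08 in PC3 (95% interval -0.38 to 0.55) and 0.06 in LNCaP (-0.28 to 0.41). Without the 3 libraries that stood apart, its change in LNCaP was 0.21 (edgeR, adjusted p = 0.016). The LNCaP minus PC3 difference of the LRRC8D changes was -0.18 with these libraries (edgeR, adjusted p = 0.62) and -0.20 without them (edgeR, adjusted p = 0.029), and that of the LRRC8E changes was -1.18 with them (edgeR, adjusted p = 0.073) and -1.26 without them (edgeR, adjusted p = 0.015), where 66% of all genes passed. Without LNCaP CE control library 3 the LRRC8E difference was -2.24 (edgeR, adjusted p = 0.0098).

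LRRC8B, LRRC8C and LRRC8D are neighbours on the plus strand of chromosome 1 (chr1:89524836-89597864, chr1:89633072-89769903 and chr1:89821014-89936611, GENCODE 29 on GRCh38), yet their changes in CE cells ran from no call through higher to lower. LRRC8A lies at chr9:128882112-128918039 and LRRC8E at chr19:7888505-7902021, each on the plus strand. LRRC8A overlaps KYAT1 on the other strand at its start, which averaged 11.9 TPM over the 24 libraries. The region before the RefSeq start of transcription is shown for the LRRC8 genes at the ends of this range, LRRC8E and LRRC8C, and for STK39, a kinase gene that fell in 1 line and rose in the other. RefSeq and GENCODE 29 place these starts differently. By the GENCODE 29 positions the whole STK39 stretch lies inside the gene, which begins at chr2:168248141 on the minus strand. The LRRC8C and LRRC8E stretches run past the GENCODE 29 starts given above. Each run is the 250 bases before the RefSeq start on GRCh38.p14, read 5′ to 3′ on the gene's strand, with GC boxes (GGGCGG or CCGCCC, either strand, overlapping matches joined) in capitals.
LRRC8E, chr19:7888260-7888509, plus strand: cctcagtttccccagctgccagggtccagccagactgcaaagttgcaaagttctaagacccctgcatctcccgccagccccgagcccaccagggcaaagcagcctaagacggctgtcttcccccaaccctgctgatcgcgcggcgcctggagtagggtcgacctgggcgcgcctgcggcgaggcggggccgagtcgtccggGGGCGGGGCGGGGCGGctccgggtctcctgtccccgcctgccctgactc
LRRC8C, chr1:89632870-89633119, plus strand: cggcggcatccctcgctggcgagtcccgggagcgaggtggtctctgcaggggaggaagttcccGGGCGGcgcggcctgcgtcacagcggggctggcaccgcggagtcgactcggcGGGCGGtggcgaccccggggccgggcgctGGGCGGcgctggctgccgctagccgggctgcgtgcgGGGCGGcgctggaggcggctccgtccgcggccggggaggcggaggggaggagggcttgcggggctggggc
STK39, chr2:168247596-168247845, minus strand: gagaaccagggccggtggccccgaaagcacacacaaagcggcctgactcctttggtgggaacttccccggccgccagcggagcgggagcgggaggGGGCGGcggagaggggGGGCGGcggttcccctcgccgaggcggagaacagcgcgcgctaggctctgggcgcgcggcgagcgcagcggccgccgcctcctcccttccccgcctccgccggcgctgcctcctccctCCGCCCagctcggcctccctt
The stretch before LRRC8E holds 3 GC boxes that run into each other, that before LRRC8C holds 4 and that before STK39 holds 3. GC boxes are common, with at least 1 in 42.6% of the 35116 promoters of the RefSeq table over the same length. None of the 3 stretches holds CAGGTG (or CACCTG), the E-box letters that ZEB and SNAI factors bind, which 17.5% of all promoters hold, nor AACCGGTT, a Grainyhead site, which 0.117% hold. Among the other genes, OXSR1, both LRRC8D entries of the RefSeq table and 1 LRRC8A entry hold 1 such E-box each over the same length. Of the 10 genes, 9 have an entry in that table. No measurement of this series bears on binding there.

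As a family, the LRRC8 transcripts summed to 66.3 ± 0.7 TPM in PC3 CE controls and 123 ± 2 TPM in PC3 parental controls, and to 65.9 ± 2.8 TPM in LNCaP CE controls and 99.2 ± 8.5 TPM in LNCaP parental controls (SD, n = 3 each). LRRC8E made up 0.357% of that sum in PC3 CE controls and 23.3% in PC3 parental controls, and 0.0549% in LNCaP CE controls and 12.7% in LNCaP parental controls. LRRC8C made up 6.60% in PC3 CE controls and 0.797% in PC3 parental controls. LRRC8D was the most abundant LRRC8 gene in all 4 control groups, with 42.0% and 38.2% of the sum in PC3 CE and PC3 parental controls, and 48.4% and 56.5% in LNCaP CE and LNCaP parental controls. These shares describe transcripts and were not tested, and they say nothing of which subunits sat together in channels.

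**Figure D2:**
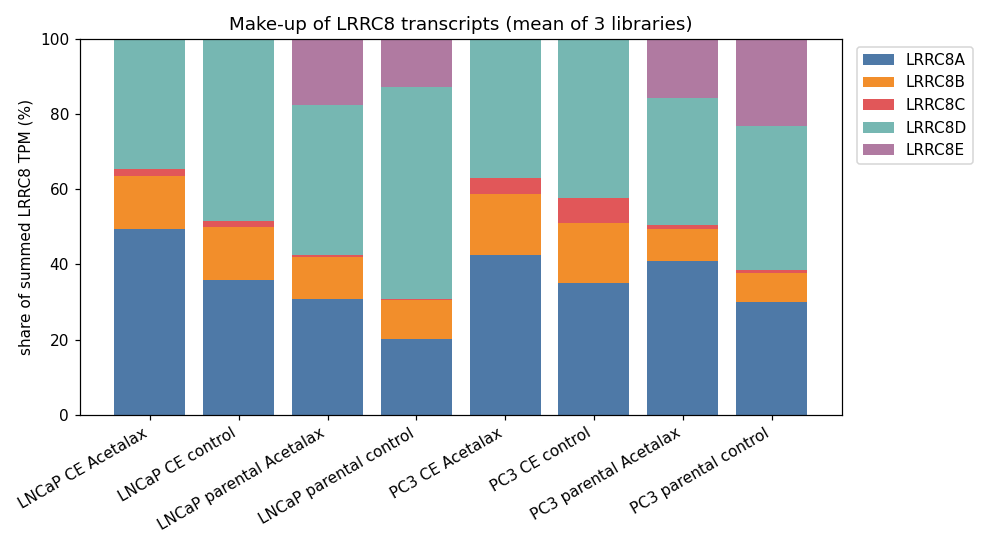
Share of each LRRC8 gene in the summed TPM of the family (vertical axis, %, mean of 3 libraries) in the 8 groups on the horizontal axis. LRRC8E fills 12.7% to 23.3% of the bar in parental groups and under 0.4% in CE groups, and after Acetalax LRRC8A takes a larger and LRRC8D a smaller share than in the control in each of the 4 kinds of cells.

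WNK1 (chr12:752593-911452, plus strand), the widely expressed kinase at the head of the pathway, was at 70.8, 83.9 and 84.2 TPM in PC3 CE controls, against 41.3, 31.4 and 32.2 TPM in PC3 parental controls. LNCaP CE controls had 89.8, 84.1 and 96.3 TPM, against 44.2, 45.1 and 55.3 TPM in LNCaP parental controls. The groups did not overlap in either line, with log2 fold changes of 1.196 ± 0.105 in PC3 (edgeR, adjusted p = 6.7e-07) and 1.07 ± 0.09 in LNCaP (edgeR, adjusted p = 6.0e-07). The difference of the changes was -0.15, LNCaP minus PC3 (95% interval -0.45 to 0.14, edgeR, adjusted p = 0.38).

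WNK4, best known for salt handling in the distal nephron, was high in PC3 parental cells and nowhere else. It was at 0.33, 0.53 and 0.59 TPM in PC3 CE controls, against 49.1, 44.4 and 45.6 TPM in PC3 parental controls. In LNCaP CE controls it was at 1.45, 1.39 and 1.54 TPM, against 0.13, 0.01 and 0.14 TPM in LNCaP parental controls. The log2 fold change was -7.02 ± 0.47 in PC3 (edgeR, adjusted p = 5.4e-08) and 4.00 ± 0.56 in LNCaP (edgeR, adjusted p = 6.4e-05), a difference of 11.01 ± 0.67 (edgeR, adjusted p = 1.4e-11). Directions were thus opposite, but the LNCaP CE level was still far below that of PC3 parental cells. The change in LNCaP rests on 466 counts in the 3 CE controls, against 32 in the 3 parental controls, 14.6-fold more per total count (95% exact interval 10.2 to 21.5). WNK4 (chr17:42780678-42796936, plus strand) overlaps COA3 on the other strand at its far end. COA3 averaged 65.6 TPM over the 24 libraries and the strand setting of the counting is not given, so the part of COA3 reads in the low WNK4 values was not tested. WNK4 made up 0.596% of the summed WNK1 and WNK4 TPM in PC3 CE controls and 57.2% in PC3 parental controls.

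STK39 and OXSR1 encode SPAK and OSR1, the closely related kinases that WNKs switch on. STK39 lies at chr2:167954020-168248141 on the minus strand and OXSR1 at chr3:38165089-38255488 on the plus strand. STK39 was at 37.8, 39.5 and 38.4 TPM in LNCaP CE controls, against 164, 168 and 170 TPM in LNCaP parental controls. In PC3 CE controls it was at 30.9, 30.4 and 29.8 TPM, against 22.1, 25.3 and 22.8 TPM in PC3 parental controls. It therefore fell 4.05-fold in LNCaP CE (log2 -2.02 ± 0.07, edgeR, adjusted p = 4.7e-10) and rose 1.24-fold in PC3 CE (log2 0.31 ± 0.09, edgeR, adjusted p = 0.0099). The call in PC3 was lost without PC3 parental control library 1 (log2 0.24, edgeR, adjusted p = 0.058). The difference between the changes was -2.35 ± 0.11, LNCaP minus PC3 (edgeR, adjusted p = 3.6e-13).

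OXSR1 rose slightly in CE cells of both lines. It was at 56.4, 57.3 and 52.6 TPM in PC3 CE controls, against 46.6, 48.6 and 44.3 TPM in PC3 parental controls (log2 0.22 ± 0.06, edgeR, adjusted p = 0.0060). LNCaP CE controls had 43.5, 41.9 and 44.2 TPM, against 33.6, 28.0 and 37.7 TPM in LNCaP parental controls (log2 0.51 ± 0.08, edgeR, adjusted p = 1.4e-04). The groups did not overlap in either line, though without a filter on low counts the PC3 call was lost (edgeR, adjusted p = 0.052). STK39 made up 47.2% of the summed STK39 and OXSR1 TPM in LNCaP CE controls and 83.5% in LNCaP parental controls. The corresponding share was 35.4% in PC3 CE controls and 33.4% in PC3 parental controls.

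SLC12A2 (chr5:128083766-128189688, plus strand), the NKCC1 carrier at the end of the pathway, moved opposite ways in the 2 lines. It was at 12.6, 13.4 and 13.1 TPM in PC3 CE controls, against 18.2, 20.3 and 16.5 TPM in PC3 parental controls (log2 -0.55 ± 0.08, edgeR, adjusted p = 8.6e-05). In LNCaP CE controls it was at 18.8, 18.0 and 18.2 TPM, against 9.74, 11.7 and 11.8 TPM in LNCaP parental controls (log2 0.86 ± 0.10, edgeR, adjusted p = 1.4e-05). The groups did not overlap in either line, and the difference of the changes was 1.38 ± 0.13, LNCaP minus PC3 (edgeR, adjusted p = 1.6e-08).

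**Figure D3:**
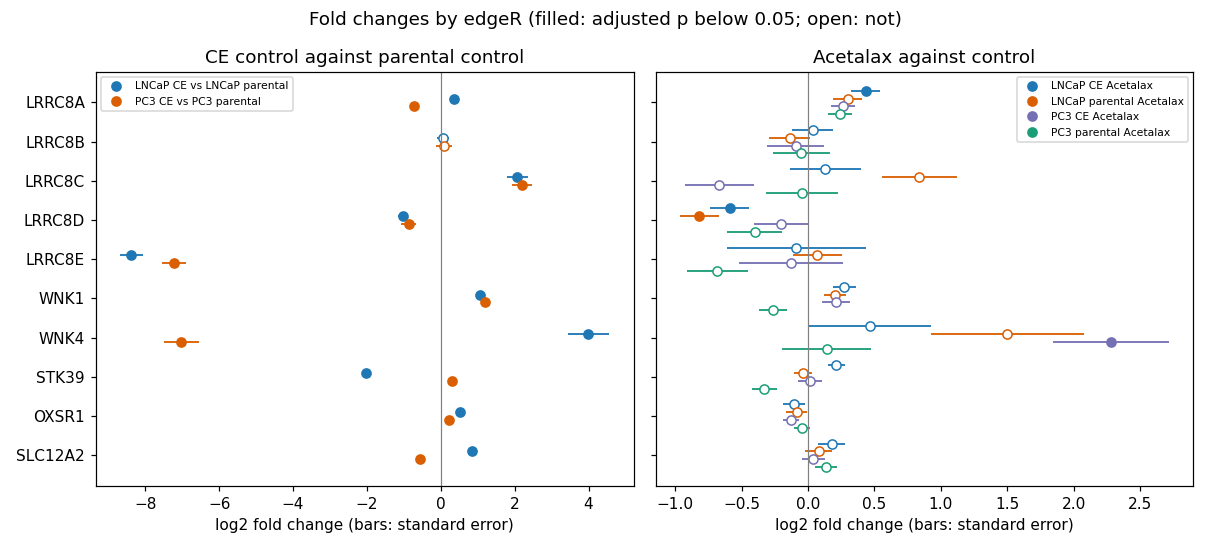
Log2 fold changes of the 10 genes by edgeR (horizontal axes, bars: standard error), for CE against parental controls on the left and for Acetalax against control in the 4 kinds of cells on the right. Filled points have an adjusted p below 0.05; LRRC8E lies at -8.38 and -7.22 and WNK4 at 4.00 and -7.02 on the left, and most points on the right lie within 1 of 0 and are open.

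Acetalax for 4 h left most of the 10 genes without a call. Among the subunits LRRC8D passed most often. It had a lower mean after Acetalax in all 4 kinds of cells and fell in both kinds of LNCaP cells. LRRC8A had a higher mean in all 4 and passed in LNCaP CE cells. In PC3 CE cells WNK4 was the 1 gene that passed.

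In LNCaP parental cells LRRC8D was at 35.9, 34.9 and 20.0 TPM after Acetalax, against 55.6, 50.9 and 61.9 TPM in controls. All treated libraries lay below all controls, and the lowest was library 3, which stood apart. The log2 fold change was -0.82 ± 0.15 (edgeR, adjusted p = 0.0060), and LRRC8D was the 1 of the 10 genes that passed, where 8.45% of all genes did (4.04% higher, 4.41% lower). The call was kept in each alternative but the fit of the 6 parental libraries alone, where the value was -0.81 (edgeR, adjusted p = 0.13). LRRC8C was at 0.36, 0.34 and 0.66 TPM after Acetalax, against 0.35, 0.32 and 0.26 TPM in controls, and did not pass (log2 0.84 ± 0.28, edgeR, adjusted p = 0.11). WNK4 was at 0.33, 0.49 and 0.14 TPM after Acetalax, against 0.13, 0.01 and 0.14 TPM in controls, and did not pass either (log2 1.499 ± 0.576, edgeR, adjusted p = 0.16). Without the libraries that stood apart LRRC8C (0.56, edgeR, adjusted p = 0.046) and WNK4 (1.24, edgeR, adjusted p = 0.0027) passed as well, where 26.6% of all genes did.

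In LNCaP CE cells LRRC8D was at 22.9, 18.6 and 19.0 TPM after Acetalax, against 32.4, 29.9 and 33.4 TPM in controls (log2 -0.59 ± 0.15, edgeR, adjusted p = 0.034). LRRC8A was at 27.8, 29.9 and 28.4 TPM after Acetalax, against 23.6, 23.6 and 23.4 TPM in controls (log2 0.43 ± 0.11, edgeR, adjusted p = 0.036). The groups did not overlap for either gene. These 2 of 10 passed where 7.4% of all genes did (3.34% higher, 4.06% lower), and both calls were lost when any 1 of the 6 libraries was left out, with adjusted p-values by edgeR of 0.081 to 0.14. They were also lost with a replicate block (edgeR, adjusted p = 0.063 for LRRC8D and 0.073 for LRRC8A). Both were lost by limma at either pseudocount too (limma, adjusted p 0.059 to 0.10), and that of LRRC8A with no filter on low counts (edgeR, adjusted p = 0.070). With the 6 LNCaP CE libraries fitted alone, 7 of the 10 passed, where 49.4% of all genes did. WNK1 (0.27 ± 0.08, edgeR, adjusted p = 0.080) and STK39 (0.21 ± 0.07, edgeR, adjusted p = 0.074) were just above the threshold in the fit of all 12 libraries of the line. Without the parental libraries that stood apart, where 34.1% of all genes passed, WNK1 (0.28, edgeR, adjusted p = 0.0017), STK39 (0.22, edgeR, adjusted p = 3.3e-04), WNK4 (0.47, edgeR, adjusted p = 0.013) and SLC12A2 (0.19, edgeR, adjusted p = 0.011) passed as well. In TPM, however, treated and control libraries overlapped for WNK1, STK39 and SLC12A2. Means after Acetalax and in controls were 94.3 and 90.1 TPM for WNK1, 40.3 and 38.6 TPM for STK39, and 18.6 and 18.3 TPM for SLC12A2.

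In PC3 parental cells 0 of the 10 genes passed by edgeR, where 7.8% of all genes did (3.49% higher, 4.31% lower), and 4 had an unadjusted p under 0.05. By DESeq2 2 passed, where 15.5% of all genes did. LRRC8E had the largest change among the 10. It was at 16.8, 16.8 and 16.3 TPM after Acetalax, against 27.7, 29.9 and 28.5 TPM in controls. Every treated library lay well below every control, and the log2 fold change in the fit of all 12 PC3 libraries was -0.68 ± 0.23 (edgeR, adjusted p = 0.10). It passed in the 6 parental libraries alone (-0.68 ± 0.08, edgeR, adjusted p = 1.2e-04), by DESeq2 (adjusted p = 0.0043) and without PC3 CE Acetalax library 1 (edgeR, adjusted p = 1.3e-05). LRRC8D was at 38.0, 35.0 and 35.5 TPM after Acetalax, against 47.3, 48.0 and 46.0 TPM in controls, again with no overlap (log2 -0.40 ± 0.21, edgeR, adjusted p = 0.31). It too passed in the parental libraries alone (edgeR, adjusted p = 8.7e-04) and without PC3 CE Acetalax library 1 (edgeR, adjusted p = 7.4e-05). STK39 was at 19.2, 17.2 and 18.6 TPM after Acetalax, against 22.1, 25.3 and 22.8 TPM in controls (log2 -0.33 ± 0.09, edgeR, adjusted p = 0.056). It passed by DESeq2 (adjusted p = 0.017), in the parental libraries alone (edgeR, adjusted p = 0.0079) and without PC3 CE Acetalax library 1 (edgeR, adjusted p = 0.0013). LRRC8A was 0.24 with that library (edgeR, adjusted p = 0.14) and passed without it at the same value (edgeR, adjusted p = 0.019), where 27.3% of all genes did.

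In PC3 CE cells WNK4 was at 3.74, 1.27 and 1.59 TPM after Acetalax, against 0.33, 0.53 and 0.59 TPM in controls. All treated libraries lay above all controls, and the highest was library 1, which stood apart. The log2 fold change was 2.28 ± 0.44 (edgeR, adjusted p = 0.011), and 8.15% of all genes passed (4.67% higher, 3.47% lower). The response of WNK4 was larger in PC3 CE than in PC3 parental cells by 2.14 ± 0.55 (edgeR, adjusted p = 0.037), 1 of the 10 genes in a comparison where 8.03% of all genes passed (4.59% higher, 3.44% lower). That call was lost without any 1 of the 9 PC3 libraries other than the CE Acetalax ones (edgeR, adjusted p 0.069 to 0.10). In PC3 parental cells WNK4 was at 55.2, 54.7 and 58.3 TPM after Acetalax, against 49.1, 44.4 and 45.6 TPM in controls, and did not pass (log2 0.14 ± 0.34, edgeR, adjusted p = 0.90). Leaving out any 1 of the PC3 CE controls ended the call of the CE response of WNK4 (edgeR, adjusted p 0.050 to 0.055), as did a fit of the 6 CE libraries alone (2.30, edgeR, adjusted p = 0.11). The WNK1 response was larger in PC3 CE than in PC3 parental cells by 0.47 with CE Acetalax library 1 (edgeR, adjusted p = 0.073) and by 0.57 without it (edgeR, adjusted p = 0.0010). That of STK39 was larger by 0.34 with the library (edgeR, adjusted p = 0.14) and by 0.43 without it (edgeR, adjusted p = 0.0041), where 22.5% of all genes passed.

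LRRC8D in PC3 CE cells turned on the library that stood apart. It was at 32.1, 17.8 and 19.0 TPM after Acetalax, against 28.9, 27.8 and 27.0 TPM in controls, so library 1 lay above the controls and the other libraries below them. The log2 fold change was -0.20 ± 0.21 (edgeR, adjusted p = 0.55) with library 1 and -0.60 ± 0.07 without it (edgeR, adjusted p = 1.7e-05), where 16.4% of all genes passed. LRRC8C was at 1.35, 3.03 and 3.51 TPM after Acetalax, against 4.33, 4.36 and 4.43 TPM in controls, with library 1 lowest. Its value was -0.67 ± 0.26 with library 1 (edgeR, adjusted p = 0.13) and -0.36 ± 0.10 without it (edgeR, adjusted p = 0.025). WNK1 changed from no call to a call in the same way, at 0.21 ± 0.10 with library 1 (edgeR, adjusted p = 0.22) and 0.31 ± 0.08 without it (edgeR, adjusted p = 0.012).

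**Figure D4:**
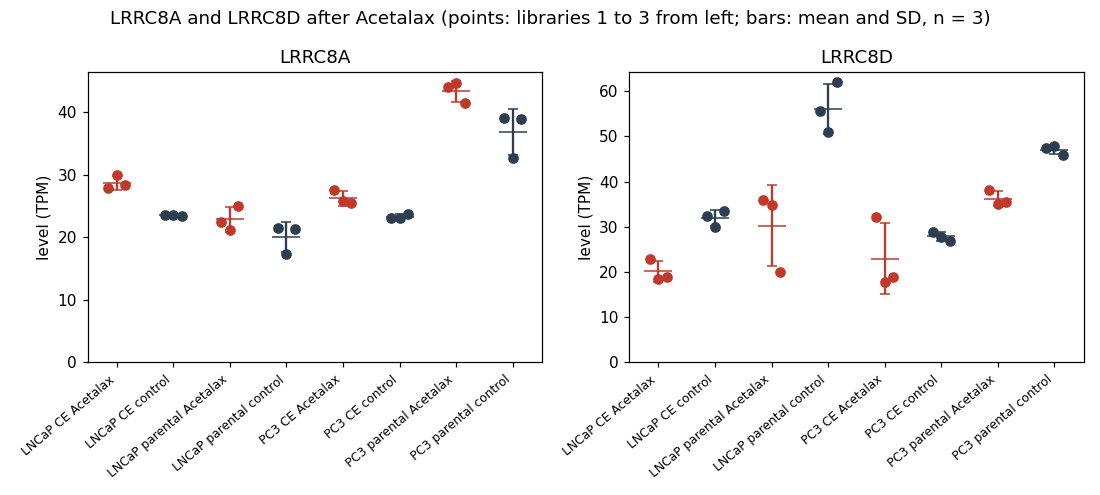
LRRC8A (left) and LRRC8D (right) in TPM on vertical axes that start at 0, with points for libraries 1 to 3 from the left and bars for the mean and SD of 3 in each of the 8 groups. LRRC8A is higher on average after Acetalax than in the control in each kind of cells, as in LNCaP CE with 27.8 to 29.9 against 23.4 to 23.6 TPM, and LRRC8D is lower on average, with PC3 CE Acetalax library 1 at 32.1 TPM as the treated library above its controls.

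LRRC8A took 49.5% of the LRRC8 sum after Acetalax and 35.8% in controls in LNCaP CE cells, and 30.7% after Acetalax and 20.2% in controls in LNCaP parental cells. In PC3 its share was 42.6% after Acetalax and 35.2% in controls in CE cells, and 40.8% after Acetalax and 29.9% in controls in parental cells. The lowest treated library lay above the highest control in each of the 4 kinds of cells. LRRC8D took 34.6% after Acetalax and 48.4% in controls in LNCaP CE cells, and 39.8% after Acetalax and 56.5% in controls in LNCaP parental cells. In PC3 the LRRC8D share was 36.6% after Acetalax and 42.0% in controls in CE cells, where the ranges overlapped, and 34.0% after Acetalax and 38.2% in controls in parental cells. The shares are fractions of 1 sum, so a rise of 1 and a fall of another are not separate results, and they were not tested.

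The remaining genes gave small estimates after Acetalax. OXSR1 ran from -0.13 to -0.05 and SLC12A2 from 0.04 to 0.18 on the log2 scale over the 4 kinds of cells, LRRC8B from -0.14 to 0.03, and none of these passed in the fits of 12 libraries. In TPM, however, treated and control libraries did not overlap for OXSR1 in CE cells of either line. Its means after Acetalax and in controls were 36.2 and 43.2 TPM in LNCaP CE and 48.2 and 55.4 TPM in PC3 CE cells. In the 6 LNCaP CE libraries alone SLC12A2 (0.17, edgeR, adjusted p = 0.0010) and OXSR1 (-0.11, edgeR, adjusted p = 0.012) passed. The SLC12A2 levels overlapped there, with means of 18.6 TPM after Acetalax and 18.3 TPM in controls. LRRC8E in LNCaP parental cells was at 13.4, 13.5 and 12.8 TPM after Acetalax, against 13.9, 10.3 and 13.8 TPM in controls (log2 0.07 ± 0.18, edgeR, adjusted p = 0.93). WNK1 in PC3 parental cells was at 32.2, 23.8 and 29.5 TPM after Acetalax, against 41.3, 31.4 and 32.2 TPM in controls, with overlapping groups (log2 -0.26 ± 0.10, edgeR, adjusted p = 0.17). It passed in the parental libraries alone (edgeR, adjusted p = 0.032) and without PC3 CE Acetalax library 1 (edgeR, adjusted p = 0.011). Between LNCaP CE and LNCaP parental cells 0 of the 10 responses differed by edgeR, where 1.28% of all genes did (0.583% higher, 0.701% lower), with 1 at an unadjusted p under 0.05 and 1 by DESeq2. Without the libraries that stood apart the LRRC8A response was larger in LNCaP CE cells by 0.32 (edgeR, adjusted p = 0.0056), against 0.14 with them, and that of STK39 by 0.20 (edgeR, adjusted p = 0.026), against 0.25 with them, where 19.3% of all genes passed. Between LNCaP parental and PC3 parental cells 0 of 10 responses differed by edgeR, where 5.05% of all genes did (3.15% higher, 1.9% lower), with 4 at an unadjusted p under 0.05 and 3 by DESeq2. The LRRC8E response was 0.76 higher in LNCaP parental than in PC3 parental cells (95% interval 0.12 to 1.40, edgeR, adjusted p = 0.20), and passed by DESeq2 (adjusted p = 0.0048), by limma on log2(TPM + 1) (adjusted p = 0.0094) and without the 3 libraries that stood apart (edgeR, adjusted p = 3.7e-04). Without those libraries the responses of WNK1 (0.41, edgeR, adjusted p = 0.010), WNK4 (1.09, edgeR, adjusted p = 0.0049) and STK39 (0.34, edgeR, adjusted p = 0.0035) passed too, with 0.47, 1.39 and 0.30 for WNK1, WNK4 and STK39 when the libraries were kept.

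Between the unexposed lines STK39 and WNK4 differed most among the 10 genes, in opposite directions. Of the 10, 3 were higher and 6 lower in LNCaP parental than in PC3 parental controls, where 70.3% of all genes passed (35.5% higher, 34.7% lower). STK39 averaged 167 ± 3 TPM in LNCaP parental controls and 23.4 ± 1.7 TPM in PC3 parental controls (SD, n = 3 each), a log2 fold change of 2.85 ± 0.09 (edgeR, adjusted p = 1.1e-16). WNK4 averaged 0.0933 ± 0.0723 TPM in LNCaP parental controls and 46.4 ± 2.5 TPM in PC3 parental controls, a log2 fold change of -8.82 ± 0.53 (edgeR, adjusted p = 6.0e-12). LRRC8A (-0.89), LRRC8C (-1.67), LRRC8E (-1.11), OXSR1 (-0.48) and SLC12A2 (-0.79) were also lower in LNCaP parental controls. LRRC8D (0.46 ± 0.19, edgeR, adjusted p = 0.035) and WNK1 (0.31 ± 0.10, edgeR, adjusted p = 0.0085) were higher there. The LRRC8D call was lost in 10 of the alternatives, with 0.24 by limma on log2(TPM + 1) as the smallest value (limma, adjusted p = 0.26), and that of WNK1 without LNCaP parental control library 3 (0.20, edgeR, adjusted p = 0.082) and with only the 6 control libraries compared (0.31, edgeR, adjusted p = 0.065). LRRC8B was -0.09 with the libraries that stood apart (edgeR, adjusted p = 0.70) and -0.27 without them (edgeR, adjusted p = 0.0087).

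Between the CE controls of the 2 lines 6 of the 10 genes differed, 3 in each direction, where 41% of all genes did (16.7% higher, 24.2% lower). WNK4 (2.19 ± 0.43), STK39 (0.49 ± 0.08) and SLC12A2 (0.60 ± 0.09) were higher in LNCaP CE than in PC3 CE controls. LRRC8C (-1.84 ± 0.28), LRRC8E (-2.29 ± 0.49) and OXSR1 (-0.22 ± 0.07) were lower in LNCaP CE. The LRRC8E value was -0.25 by limma on log2(TPM + 1) (limma, adjusted p = 0.14), and the OXSR1 call was lost with no filter (edgeR, adjusted p = 0.12) and without any 1 of 4 of the 6 libraries (PC3 CE controls 1 and 2, LNCaP CE controls 1 and 2; edgeR, adjusted p 0.059 to 0.068). STK39 differed by 7.19-fold between LNCaP parental and PC3 parental controls and by 1.41-fold between LNCaP CE and PC3 CE controls, and the difference of those changes is the one tested above. LRRC8A in LNCaP CE against PC3 CE controls was 0.15 (95% interval -0.06 to 0.36, edgeR, adjusted p = 0.24) and LRRC8D was 0.29 (-0.11 to 0.68, edgeR, adjusted p = 0.24). Both passed without the 3 libraries that stood apart (LRRC8A edgeR, adjusted p = 0.049, LRRC8D edgeR, adjusted p = 7.3e-05), where 58.8% of all genes did. In the 6 CE controls alone LRRC8A (0.17, edgeR, adjusted p = 5.7e-04), LRRC8D (0.30, edgeR, adjusted p = 4.4e-06) and WNK1 (0.18, edgeR, adjusted p = 2.6e-04) passed, where 76.6% of all genes did. In TPM the groups overlapped for LRRC8A (23.5 in LNCaP CE, 23.3 in PC3 CE) and WNK1 (90.1 and 79.6), but not for LRRC8D (31.9 and 27.9).

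The order of levels over the 8 groups shows where each gene was highest. LRRC8A ran from 43.4 ± 1.7 TPM in PC3 parental Acetalax to 20.1 ± 2.4 TPM in LNCaP parental control (SD, n = 3 each), and its 4 lowest groups overlapped with their neighbours in the order. LRRC8D was highest in LNCaP parental control, 56.1 ± 5.5 TPM, and lowest in LNCaP CE Acetalax, 20.1 ± 2.4 TPM, and from LNCaP CE control downwards neighbours overlapped. WNK1 was at 65.5 TPM or more in all CE libraries and at 55.3 TPM or less in all parental ones. OXSR1 stayed within 29.6 to 55.4 TPM in group means, the narrowest span among the 4 kinases. LRRC8B had no pair of neighbours in its order that did not overlap.

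Among 22 further genes around the WNK pathway (other WNKs, their ubiquitin ligase, partner proteins and carriers they regulate), 20 were tested in each line. In PC3 CE controls 5 were higher and 8 lower than in PC3 parental controls, with a list median of 0.12 beside -0.01 for all genes, and in LNCaP CE controls 8 were higher and 9 lower, with a list median of -0.13 beside -0.06. Beside these counts, 77.5% of all genes passed in PC3 (38.5% higher, 39% lower) and 75.3% in LNCaP (36% higher, 39.3% lower). NEDD4L, a ubiquitin ligase known for removing the epithelial sodium channel, fell in both lines. It averaged 14.3 ± 2.4 TPM in PC3 CE controls and 120 ± 12 TPM in PC3 parental controls (log2 -3.17, edgeR, adjusted p = 7.8e-07). In LNCaP it averaged 12.4 ± 0.7 TPM in CE controls and 145 ± 25 TPM in parental controls (log2 -3.26, edgeR, adjusted p = 2.7e-08). TSC22D3, a glucocorticoid-induced leucine zipper protein, also fell in both (log2 -2.26 ± 0.76 in PC3, edgeR, adjusted p = 0.017, and -2.88 ± 0.49 in LNCaP, edgeR, adjusted p = 2.7e-04). Its spread was wide in LNCaP parental controls, at 70.2 ± 43.1 TPM, against 8.71 ± 2.26 TPM in LNCaP CE controls. CUL3, the scaffold of the ligase that removes WNKs, rose in both (0.45 and 1.28).

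The potassium-chloride carriers that SPAK and OSR1 switch off also differed between CE and parental controls. SLC12A4 rose in CE controls of both lines, by 6.37 in LNCaP, where it averaged 22.9 TPM in CE controls and 0.367 TPM in parental controls, and by 0.73 in PC3. SLC12A7 had a lower mean in CE controls of both lines. It averaged 9.51 ± 0.55 TPM in PC3 CE and 47.7 ± 2.4 TPM in PC3 parental controls (log2 -2.30). In LNCaP it averaged 21.1 ± 0.6 TPM in CE controls and 78.6 ± 16.8 TPM in parental controls. In LNCaP CE controls SLC12A5, a carrier best known from neurons, averaged 7.71 TPM, against 0.0167 TPM in LNCaP parental controls. CAB39L, a scaffold that activates SPAK and OSR1, averaged 3.31 ± 0.02 TPM in LNCaP CE controls and 55.9 ± 5.6 TPM in LNCaP parental controls (log2 -3.81, edgeR, adjusted p = 2.2e-10). The CAB39L and STK39 falls in LNCaP CE are in the same libraries.

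After Acetalax, 2 of these 20 genes were higher and 1 lower in PC3 parental cells, 1 was higher in LNCaP parental, 3 in PC3 CE and 1 in LNCaP CE cells. The shares of all genes that passed were 7.8% in PC3 parental, 8.45% in LNCaP parental, 8.15% in PC3 CE and 7.4% in LNCaP CE cells. TSC22D2, of a protein family that binds WNK kinases through NRBP1, rose in LNCaP parental (0.69 ± 0.09, edgeR, adjusted p = 8.4e-04), PC3 CE (0.76 ± 0.15, edgeR, adjusted p = 0.012) and LNCaP CE cells (0.67 ± 0.09, edgeR, adjusted p = 0.0016). In PC3 CE cells TSC22D2 averaged 26.2 ± 7.5 TPM after Acetalax, with library 1 included, and 17.2 ± 2.2 TPM in controls. In PC3 parental cells its value was -0.26 ± 0.15 (edgeR, adjusted p = 0.36), and the response was larger by 0.96 ± 0.18 in LNCaP parental than in PC3 parental cells (edgeR, adjusted p = 0.0021). SLC12A7 (0.44) and NRBP2 (0.40) rose and CUL3 (-0.39) fell in PC3 parental cells.

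Among 24 other genes of cell volume control, 23 were tested in PC3 and 22 in LNCaP. In PC3 CE controls 4 were higher and 14 lower than in parental controls, with a list median of -0.95 beside -0.01 for all genes, and in LNCaP CE controls 10 were higher and 9 lower, with a list median of 0.41 beside -0.06. Again, 77.5% of all genes passed in PC3 (38.5% higher, 39% lower) and 75.3% in LNCaP (36% higher, 39.3% lower). The calcium-activated chloride channel ANO1 averaged 0.417 ± 0.205 TPM in PC3 CE controls and 137 ± 4 TPM in PC3 parental controls (log2 -10.21, edgeR, adjusted p = 1.5e-10). KCNN4, a calcium-activated potassium channel, fell there too (log2 -6.04). The potassium channel KCNMA1 fell in CE cells of both lines (-4.34 in LNCaP, -2.85 in PC3), as did the water and glycerol channel AQP3 (-7.44 in LNCaP, -3.04 in PC3). AKR1B1, the aldose reductase that makes the osmolyte sorbitol, rose in both, to 202 ± 3 TPM in PC3 CE controls against 9.03 ± 1.68 TPM in PC3 parental controls, and to 168 ± 3 TPM in LNCaP CE controls against 0.820 ± 0.375 TPM in LNCaP parental controls. NFAT5, the transcription factor of the hypertonic response, rose after Acetalax in LNCaP parental (0.96 ± 0.24, edgeR, adjusted p = 0.034) and PC3 CE cells (0.94 ± 0.16, edgeR, adjusted p = 0.0063), with values of -0.40 in PC3 parental and 0.32 in LNCaP CE cells that did not pass. In LNCaP parental cells NFAT5 averaged 14.7 ± 2.6 TPM after Acetalax and 8.13 ± 3.88 TPM in controls, and each of these groups held a library that stood apart. The NFAT5 response was larger in PC3 CE than in PC3 parental cells by 1.34 ± 0.23 (edgeR, adjusted p = 0.0058). Of this list 2 genes were higher and 0 lower after Acetalax in each of the parental lines, 2 higher and 1 lower in PC3 CE, and 0 higher and 1 lower in LNCaP CE cells. The shares of all genes were 7.8% in PC3 parental, 8.45% in LNCaP parental, 8.15% in PC3 CE and 7.4% in LNCaP CE cells.

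The genes most like each of the 10 in level over the 24 libraries (Pearson's r of log2(TPM + 1), 21949 genes compared) give a description in which the 8 groups, and not 24 separate points, set the value. LRRC8E was most like MPZL2 (r = 0.995), GRHL1 (0.995) and CHMP4C (0.994). STK39 was most like SORD (0.994), AMD1 (0.993) and WSB2 (0.991), and WNK4 most like FST (0.991) and CLDN11 (0.987). WNK1 was nearest to SRCAP (0.973), LRRC8C to CHST2 (0.970), OXSR1 to ARHGEF25 (0.973), SLC12A2 to PARP14 (0.969), LRRC8A to PTGS2 (0.949) and LRRC8D to SLC33A1 (0.930). WNK4 itself was the third nearest gene to LRRC8A (0.940). LRRC8B had the weakest best match, PDIA4 (0.827).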

How the data were processed

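The authors deposited RSEM expected counts and TPM (a level per transcript length, scaled to the library) for 60660 features in 24 libraries. Per the submitters' processing notes, reads went through FastQC, STAR 2.7 and RSEM on GRCh38. The strand setting of the counting is not given in the sources used here. Per the labels' protocols, 800 ng of RNA gave poly(A)-enriched, strand-directional libraries read as 100 bp paired ends. The labels give 1 batch and do not say that libraries came from separate cultures. The p-values therefore reflect library-to-library spread, which may be technical. A further column in each deposited table (1 per table) belonged to no library and was not used.

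Deposited expected counts were rounded (10.2% were not whole) and tested with edgeR 4.0.16 (quasi-likelihood, TMM, filterByExpr minimum count 10, Benjamini-Hochberg, threshold 0.05) in R 4.3.3. Each line was fitted on its 12 libraries (20049 genes in PC3, 19393 in LNCaP) and comparisons across lines on 24 (21955 genes). "Adjusted p" names this test unless another tool is given, and standard errors were derived from the quasi-likelihood F value. Levels come from the deposited TPM. Intervals of count ratios are exact and cover counting error only, since reads are not independent molecules. Alternatives were RLE scaling, DESeq2 1.42.0, no filter, limma 3.58.1 on log2(TPM + 1) and log2(TPM + 0.1), a replicate block, only the groups compared, and leaving out libraries. On simulated counts for PC3 parental Acetalax against control (19316 genes), 73% of changes of 1 and 97% of changes of 2 on the log2 scale were recovered. For LNCaP parental Acetalax against control (18654 genes) 64% and 97% were recovered, and for LNCaP parental against PC3 parental controls (20596 genes) 71% and 95%. The simulated counts used edgeR's own estimates of spread and, apart from the planted changes, the same mean rate in every group. Changes were planted only in genes above a minimum mean count, and no library was made to stand apart. Changes smaller than 1, as most after Acetalax here, were not simulated, so these rates do not describe them.

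All 10 genes were named, and of the 2 further lists (WNK pathway, cell volume) called genes with the largest changes, at most 4 a direction with a mean of at least 1 TPM in a group. Some genes that this rule names are not reported here. The 10 genes, the lists, the markers and the 3 libraries left out were chosen with earlier results of these data known. The summed immune (at most 41.5 TPM), endothelial (at most 6.76 TPM) and fibroblast markers were checked too, the last at 2119 to 2130 TPM in PC3 CE controls, against 30.4 to 38.3 TPM in PC3 parental controls, and at 282 to 299 TPM in LNCaP CE controls, against 8.13 to 22.0 TPM in LNCaP parental controls. COL1A2 made up nearly all of the CE sums, while COL1A1 was at 11.2 TPM in PC3 CE controls and 33.4 TPM in PC3 parental controls, and PDGFRA at 0.327 TPM in PC3 CE controls. No libraries of a group agreed within counting noise (chi-square per degree of freedom at least 3.43). Positions are from GENCODE 29 and promoters from RefSeq.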

Additional observations from a re-analysis of the deposited data

Results flagged for a closer look

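The change between CE and parental controls differed between the lines, LNCaP minus PC3, for 5 of the 10 genes by the interaction term of edgeR on 24 libraries, where 56.8% of all genes differed. On the log2 scale it was 11.01 for WNK4, 1.04 for LRRC8A, 1.38 for SLC12A2, -2.35 for STK39 and 0.26 for OXSR1. The OXSR1 difference had an adjusted p of 0.038 by edgeR and lost its call in many alternatives, with 0.14 by limma on log2(TPM + 1) as the smallest value. For WNK4, LRRC8A, SLC12A2 and STK39 the changes in the lines had opposite signs, and line, medium and the marker differences of the CE libraries cannot be told apart in this comparison. The Acetalax response of WNK4 was larger in PC3 CE than in PC3 parental cells by 2.14 (edgeR, adjusted p = 0.037). It rests on PC3 CE libraries with 344, 111 and 104 counts after Acetalax and 38, 37 and 37 counts in controls, and the highest is library 1, which stood apart. The call was lost when any 1 PC3 library other than the CE Acetalax ones was left out.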

How the results depend on the processing

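Of 43 called results of the 10 genes, 31 kept their call in every alternative, as LRRC8C, LRRC8D, LRRC8E, WNK1, WNK4 and SLC12A2 did between CE and parental controls of each line, and 12 lost it in at least 1. Of the 77 results without a call, 32 passed in at least 1. The 1 reversal was the difference of the LRRC8E changes, LNCaP minus PC3, at 0.88 by limma on log2(TPM + 1) and -1.18 by edgeR. It was -2.24 without LNCaP CE control library 3. LRRC8E averaged 0.237 TPM in PC3 CE and 0.0367 TPM in LNCaP CE controls, both below the 1 TPM that this limma setting adds. The cause of the reversal was not tested. The number of genes called out of 10 changed as follows. The share of all genes called changed with the setting too, and its range for each of these comparisons is given below. A change in these counts is therefore not by itself a result about the 10 genes. In PC3 parental cells after Acetalax it was 0, where 7.8% of all genes passed. It became 2 by DESeq2 (15.5% of all genes) and 1 by limma on log2(TPM + 1) (6.41%). With only the groups compared it became 4 (27%), and without the 3 libraries that stood apart 5 (27.3%). In LNCaP parental cells it was 1 and became 3, by DESeq2 and without those libraries, 0 with only the groups compared, and 1 to 2 leaving out 1 library. In PC3 CE cells it was 1 and became 4 without those libraries, 0 with only the groups compared, and 0 to 4 leaving out 1 library. In LNCaP CE cells it was 2 and became 4 by DESeq2, 1 with no filter, 0 by limma at either pseudocount, 6 without those libraries, 7 with only the groups compared, and 0 leaving out any 1 library. The response of PC3 CE minus PC3 parental gave 1, and 2 by DESeq2, 0 by limma, 3 without those libraries and 0 to 3 leaving out 1. LNCaP CE minus LNCaP parental gave 0, and 1 by DESeq2 and 2 without those libraries. LNCaP parental minus PC3 parental gave 0, and 3 by DESeq2, 1 by limma on log2(TPM + 1), 1 with only the groups compared, 4 without those libraries and 0 to 1 leaving out 1.

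The replicate numbers showed no regular pairing of the libraries (2 of 18 same-numbered pairs had deviations correlated above 0.1). Between LNCaP parental Acetalax and control the correlations ran from -0.79 to 0.72. Each of these groups held a library that stood apart, so the check cannot decide on pairing there. With a replicate block the count fell to 0 in LNCaP CE after Acetalax (LRRC8A 0.43, edgeR, adjusted p = 0.073, LRRC8D -0.59, edgeR, adjusted p = 0.063) and to 0 for the PC3 response difference (WNK4 2.03), the OXSR1 difference of CE changes (0.26) lost its call, and no other call changed. The share of all genes called after Acetalax ran from 2.77% to 27.3% in PC3 parental, 0.882% to 26.6% in LNCaP parental, 1.29% to 16.4% in PC3 CE and 2.58% to 49.4% in LNCaP CE cells. For response differences it ran from 3.24% to 22.5%, 0.284% to 19.3% and 1.80% to 19.3%. Between CE and parental controls it was 45.6% in PC3 and 44.8% in LNCaP with no filter, which tests more genes, beside 77.5% and 75.3%. In LNCaP CE after Acetalax, limma on log2(TPM + 0.1) moved the median of all genes to -0.11. Depth limits LRRC8E and WNK4 in their low groups, where libraries held 1 to 40 counts.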
